A study of Mus musculus with 32 samples.

Results

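Progenitor cells of the mouse intestinal crypt that had lost Cpt1a were compared with wild-type progenitors, all from animals on the high fat control diet. The comparison rests on 8 of the 32 libraries of the series, 4 of each genotype, picked by the diet, genotype and cell population in their column names. The deficient mice carried Cpt1a fl/fl with the Villin-CreER and Lgr5-GFP-IRES-CreER drivers, and the wild-type mice carried both drivers with no floxed allele listed. All were C57BL6. Progenitors were sorted as Lgr5-eGFP low, positive for EpCAM, low or negative for CD24, with cells that stained for CD45, CD31, Ter119 or the dead-cell dye 7AAD left out. Both CreER alleles are thus shared by the 2 genotypes, and the Lgr5 allele is also the reporter that was sorted on. The Villin promoter drives CreER in intestinal epithelium, so Cpt1a was targeted in the epithelium as a whole rather than in progenitors alone. Age, tamoxifen schedule and any pooling of animals are not given in the sources used here. Each group is labelled with both sexes, so its 4 libraries came from more than a single animal. Whether they came from 4 separate animals is not stated, so p-values measure the spread between these libraries, which may be partly technical. Progenitors on the high-fat diet (High Fat, Cpt1a fl/fl against wild type, 4 libraries each) and Lgr5-eGFP-high stem cells on the control diet (4 each) serve as comparisons.

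CPT1A sits in the outer mitochondrial membrane and joins long-chain fatty acids to carnitine, the step that admits them to mitochondria for beta-oxidation. Inside, the translocase SLC25A20 and then CPT2 return them to acyl-CoA, and dehydrogenases, hydratases and thiolases shorten them to acetyl-CoA, which can feed the citric acid cycle or ketone body synthesis. Many of these enzymes are targets of the PPAR nuclear receptors, which bind DNA with RXR partners and take fatty acids and their derivatives as ligands. In the intestinal epithelium, PPAR target genes are known to respond to dietary fat, and fatty acid oxidation has been linked to the function of crypt stem and progenitor cells.

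Library totals ran from 5808070 to 7337425 estimated counts in Cpt1a-deficient progenitors, and from 3307711 to 5846307 in wild-type progenitors, so the deficient libraries were mostly the deeper ones. With all 8 thinned to the lowest of these totals, 27 genes were called, 25 of them among the 32 described below. Columns carry no replicate number or sex, and libraries are named a to d in column order within a group. The columns come in 4 runs of 8, each with 1 library of every group, and a fit with the run as a block is given where it changes a call. Each group is labelled as 2 females and 2 males. Among the 8 libraries, Xist, the RNA of the inactive X chromosome, had 252 to 402 counts in libraries a and b and at most 1 in c and d, while the Y-linked Ddx3y had at most 1 in a and b and 168 to 346 in c and d. Libraries a and b thus carry the female signature in both genotypes, and sex is balanced between the genotypes but cannot be told apart from the column runs. Correlations between replicate libraries were 0.962 to 0.976 in log2 CPM. Values below are TMM-scaled counts per 1000000 (CPM) unless TPM, which is scaled by transcript length, is named. A gene was called when its edgeR quasi-likelihood p, adjusted by Benjamini-Hochberg over 12460 tested genes, was under 0.05. Differences are log2 fold changes, deficient over wild type, with their standard error, and n = 4 libraries in each group throughout. Counts per gene in bulk samples cannot tell fewer cells of a type from less RNA per cell.

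Cpt1a, a gene at chr19:3322334-3385733 on the plus strand of GRCm38, had the smallest adjusted p of all tested genes. The Cpt1a-deficient libraries a to d held 21.9, 26.7, 18 and 29.2 CPM, against 202, 159, 197 and 249 CPM in the wild-type libraries a to d. No deficient library came near a wild-type one. Cpt1a averaged 24 ± 5.01 CPM in deficient and 202 ± 37 CPM in wild-type progenitors (SD), a log2 fold change of -3.07 ± 0.17 (edgeR adjusted p = 1.71e-08). On the length-scaled measure it was 8.15 ± 1.5 TPM in deficient and 69 ± 11.7 TPM in wild-type libraries (SD). The targeted gene therefore matched the genotype label in each of the 8 libraries. The muscle isoform Cpt1b reached at most 0.981 CPM in a deficient library and 0.870 CPM in a wild-type one. The brain isoform Cpt1c reached at most 0.330 CPM in a deficient and 0.336 CPM in a wild-type library. Both isoforms were under the filter on low counts and were not tested.

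Across all genes the response was narrow and mostly upward. edgeR called 32 of 12460 genes (0.257% of those tested), 28 higher (0.225%) and 4 lower (0.0321%) in Cpt1a-deficient progenitors. All 32 had libraries that did not overlap between genotypes, which held for 406 of the tested genes (3.26%), 250 above (2.01%) and 156 below (1.25%) wild type. The calls rest on the same values, so this separation is not separate evidence for them. At an unadjusted p under 0.05 there were 723 genes (5.8%), 394 higher (3.16%) and 329 lower (2.64%). The median log2 fold change over all tested genes was 0.01, and 52.0% of them were positive. The 28 genes that rose included Pdk4, Acot1 and Acacb. The 4 that fell were Cpt1a, Oxct1, Sesn1 and Plac9b.

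**Figure D1:**
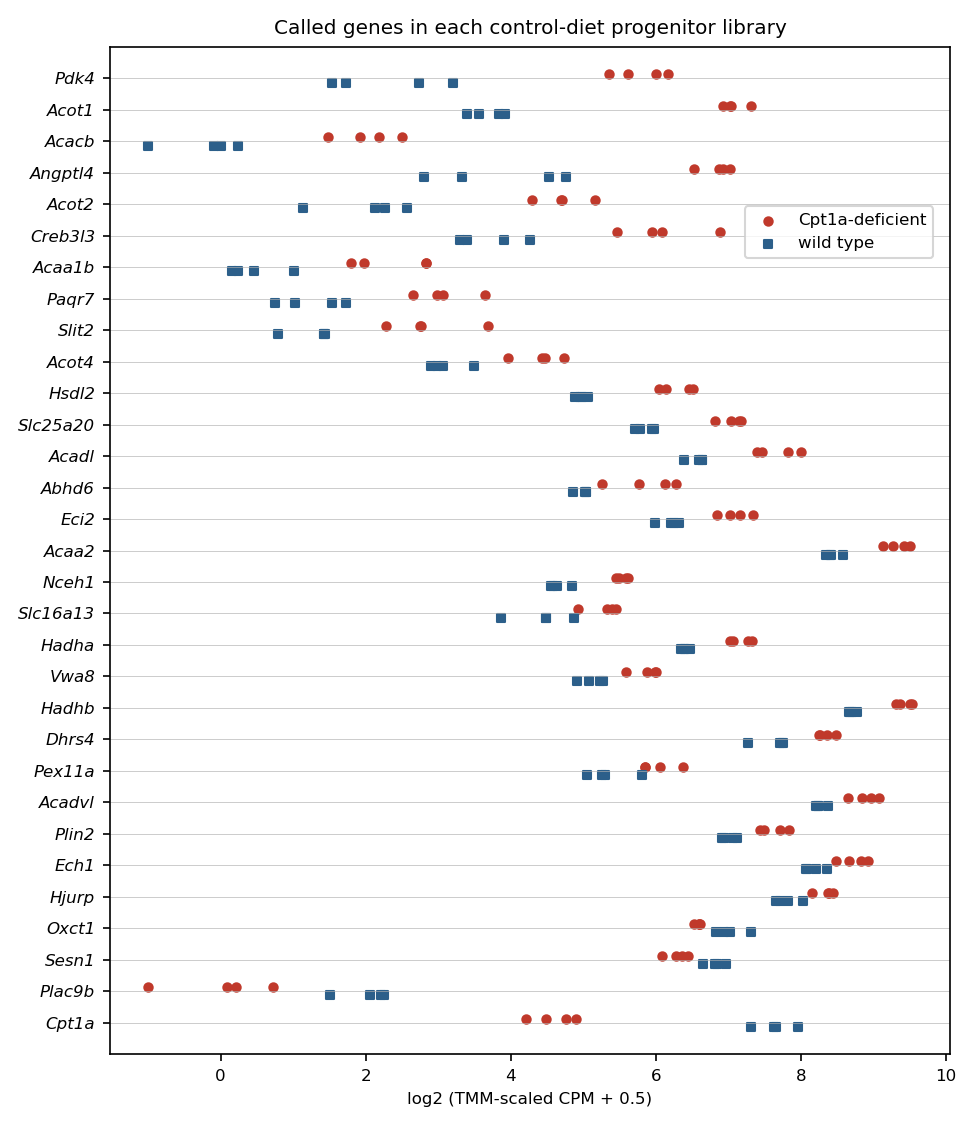
Each row is a called gene, ordered by log2 fold change; the horizontal axis is log2 of TMM-scaled CPM plus 0.5. Circles are the 4 Cpt1a-deficient libraries and squares the 4 wild-type libraries, drawn slightly apart within a row. In every row the 2 genotypes do not overlap, and Pdk4 and Acot1 show wide gaps among the genes that rose. The genes were chosen by their calls in these same libraries, so a separation of the genotypes is favoured by the choice.

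The size of this set depended on single libraries and on the tool. Leaving out 1 library at a time gave 17 to 49 called genes, with 17, 18 and 49 without deficient library a, b and c and 19, 18 and 20 without wild-type library b, c and d, and DESeq2 called 83. Of the 32, 15 stayed called without each single library, among them Cpt1a, Slc25a20, Acot1, Hadha, Nceh1, Hsdl2, Acaa2, Acadl, Hadhb, Eci2, Acot4, Acacb, Acot2 and Dhrs4. The other 17 had an adjusted p over 0.05 without at least 1 library, with 0.208 as the highest. Least stable were Abhd6, Angptl4 and Pex11a, which stayed called in 5, 6 and 7 of 19 alternatives, Pdk4 and Sesn1 in 8 each, Plac9b in 8 of 18, and Creb3l3 and Oxct1 in 9 of 19. The direction of every called gene held in all 19 alternatives that gave a value for it.

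The genotype effect was also read within libraries a and b, high in Xist, and within c and d, high in Ddx3y, with 2 libraries of each genotype in each pair. This fit tested 12941 genes and called 41 (0.317%) in a and b and 31 (0.24%) in c and d, of which 20 and 14 were among the 32. All 32 had the same sign in both pairs, and 22 were larger in a and b. Acadl differed by 1.38 ± 0.13 in a and b and 0.81 ± 0.13 in c and d, Hsdl2 by 1.56 ± 0.13 and 1.08 ± 0.13, Creb3l3 by 3.23 ± 0.32 and 1.64 ± 0.32, and Pex11a by 1.06 ± 0.15 and 0.29 ± 0.15. Slc16a13 went the other way, with 0.44 ± 0.20 in a and b and 1.20 ± 0.22 in c and d. For none of the 32 did the difference between the pairs pass (edgeR adjusted p at least 0.239), beside 1 call among all 12941 genes (0.00773%). At an unadjusted p under 0.05 there were 10 of the 32, beside 1295 of all (10%).

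**Figure D2:**
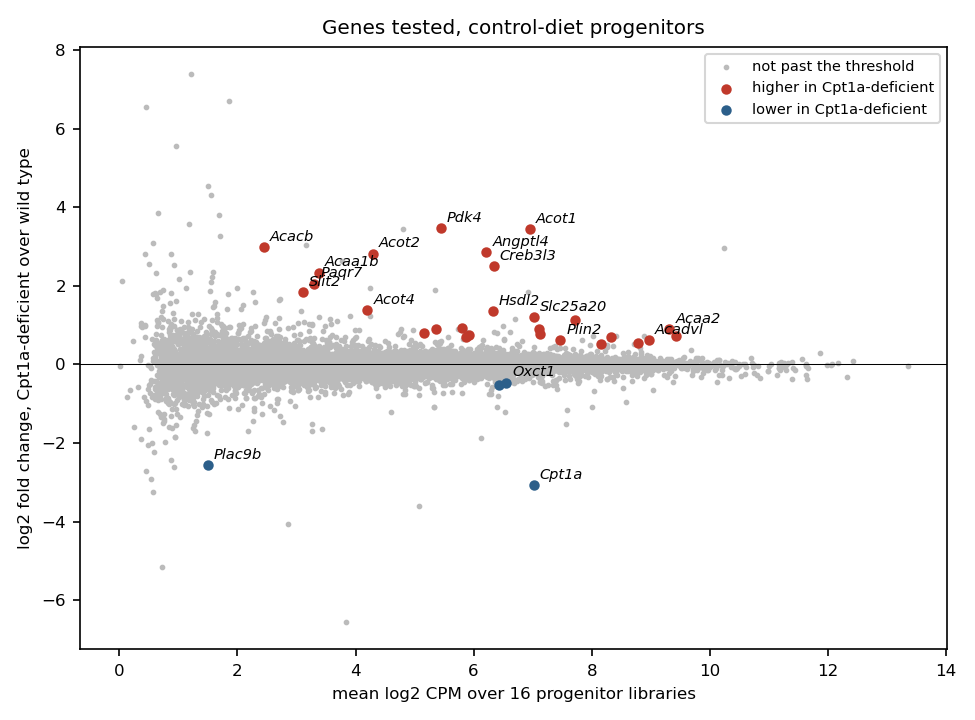
Each point is a tested gene; the horizontal axis is the mean log2 CPM over 16 progenitor libraries and the vertical axis the log2 fold change, Cpt1a-deficient over wild type. Red points were called higher, blue points the 4 called lower, and grey points did not pass. Pdk4 and Acot1 lie far above 0, and Cpt1a far below it.

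Among the genes that act after CPT1A in the carnitine shuttle, 1 of 7 tested members rose, 1 fell (Cpt1a itself) and 5 did not pass, with a list median of 0.40 beside 0.01 over all tested genes. Slc25a20 (chr9:108662088-108684641) encodes the translocase that carries acylcarnitines across the inner membrane. Its deficient libraries held 144, 142, 112 and 130.3 CPM and its wild-type libraries 51.7, 54.6, 61.5 and 62.2 CPM. The lowest deficient library was well above the highest wild-type one, and the log2 fold change was 1.20 ± 0.13 (edgeR adjusted p = 2.11e-04). Cpt2, which returns acylcarnitines to acyl-CoA, had 329.9, 273, 245 and 299 CPM in deficient and 170.0, 131, 192 and 197 CPM in wild-type libraries. These did not overlap either, but the difference of 0.74 ± 0.15 missed the threshold (edgeR adjusted p = 0.0549). Cpt2 was called with the column run as a block (edgeR adjusted p = 0.0258) and in 7 of 19 alternatives in all, DESeq2 and limma among them. Crot, the carnitine octanoyltransferase of peroxisomes, differed by 0.44 ± 0.13 (edgeR adjusted p = 0.336).

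Of the 21 tested genes of mitochondrial beta-oxidation, 6 rose, none fell and 15 did not pass (17 positive, median 0.25). The 6 span the successive reactions of the long-chain cycle. Acadvl, the very-long-chain acyl-CoA dehydrogenase that opens the cycle, had 539, 498, 401 and 458 CPM in deficient and 295, 301, 301 and 333 CPM in wild-type libraries. Acadl, the long-chain dehydrogenase, had 226, 256, 176 and 168 CPM in deficient and 83.5, 99.3, 96.2 and 99.4 CPM in wild-type libraries, so each deficient library exceeded each wild-type one. The log2 fold changes were 0.62 ± 0.11 for Acadvl and 1.13 ± 0.14 for Acadl (edgeR adjusted p = 0.0106 and 3.41e-04).

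Hadha and Hadhb encode the alpha and beta subunits of the mitochondrial trifunctional protein, which carries out the later steps on long chains. They lie head to head on chromosome 5, Hadha at chr5:30118304-30155162 on the minus strand and Hadhb at chr5:30155248-30184593 on the plus strand. Hadha had 160.3, 154, 129.8 and 133 CPM in deficient and 83.8, 81, 83.3 and 87.9 CPM in wild-type libraries. Hadhb had 729.7, 739.9, 663 and 636 CPM in deficient and 410.3, 404, 418 and 439 CPM in wild-type libraries. Wild-type levels of both were tightly grouped, and each deficient library lay above them. The log2 fold changes were close to each other, 0.78 ± 0.09 for Hadha and 0.73 ± 0.10 for Hadhb (edgeR adjusted p = 2.98e-04 and 9.12e-04). On the length-scaled measure Hadhb was the more abundant subunit, at 505 ± 32.4 TPM in deficient and 309.9 ± 8.39 TPM in wild-type libraries, while Hadha was at 117 ± 2.30 and 69.3 ± 2.61 TPM (SD). The 85 bases that separate the genes in GENCODE M21, chr5:30155163-30155247 (GRCm38.p6, plus strand, RefSeq), are shown because both genes start from this one stretch and both rose.
Hadha-Hadhb: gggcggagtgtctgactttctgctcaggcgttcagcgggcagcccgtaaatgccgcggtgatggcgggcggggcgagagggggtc

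Acaa2, the thiolase that releases acetyl-CoA, ranged over 561 to 723 CPM in deficient and 324 to 381 CPM in wild-type libraries, a log2 fold change of 0.90 ± 0.11 (edgeR adjusted p = 2.98e-04). Eci2, an enoyl-CoA isomerase needed for unsaturated chains, ranged over 114 to 161 CPM in deficient and 62.8 to 79.2 CPM in wild-type libraries (0.91 ± 0.13, edgeR adjusted p = 0.00226). Etfb, a subunit of the flavoprotein that takes electrons from the dehydrogenases, differed by 0.50 ± 0.12 and did not pass (edgeR adjusted p = 0.0914). Further down the path, none of 24 tested citric acid cycle genes, 51 nuclear genes of the respiratory chain or 13 mitochondrially encoded genes was called, with medians of 0.00, 0.04 and -0.01.

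Peroxisomes shorten very long chains, and 3 of 22 tested genes of that list rose while none fell (17 positive, median 0.18). Acaa1b, a peroxisomal thiolase, had 6.59, 6.64, 2.97 and 3.45 CPM in deficient and 1.51, 0.682, 0.615 and 0.870 CPM in wild-type libraries (2.34 ± 0.41, edgeR adjusted p = 0.012). Deficient libraries a and b, those high in Xist, were higher than c and d, and all 4 exceeded wild type. Its close paralog Acaa1a is far more abundant in CPM (190.2 to 225 CPM in deficient and 139 to 169.7 CPM in wild-type libraries) and differed by 0.42 ± 0.10 without passing (edgeR adjusted p = 0.116). Reads shared between the 2 copies could be split either way, so the value of Acaa1b is uncertain. Ech1, a dienoyl-CoA isomerase, ranged over 359 to 484 CPM in deficient and 269 to 329 CPM in wild-type libraries (0.55 ± 0.10, edgeR adjusted p = 0.0198). Pex11a, which promotes peroxisome division, had 82.2, 65.9, 57.5 and 57.5 CPM in deficient and 37.6, 32.6, 55.7 and 38.9 CPM in wild-type libraries. Wild-type library c was close to the lowest deficient libraries, and the log2 fold change of 0.69 ± 0.14 (edgeR adjusted p = 0.047) was not called with the column run as a block (edgeR adjusted p = 0.0941). Hsd17b4, a peroxisomal multifunctional enzyme, and Abcd3, a transporter of the peroxisomal membrane, differed by 0.40 ± 0.10 and 0.46 ± 0.12 without passing.

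Acyl-CoA thioesterases, which release free fatty acids and CoA, held some of the steepest changes: 3 of 10 tested members rose and none fell (median 0.31). Acot1 (cytosol), Acot2 (mitochondria) and Acot4 (peroxisomes) lie next to each other on chromosome 12, from the start of Acot2 at chr12:83987861-83993873 to Acot4 at chr12:84038379-84048601. Acot1 had 159, 129, 130.4 and 121 CPM in deficient and 14.6, 10.1, 13.8 and 11.3 CPM in wild-type libraries, a 10.9-fold difference (3.44 ± 0.34, edgeR adjusted p = 2.98e-04). Acot2 had 25.5, 25.4, 19.2 and 35.5 CPM in deficient and 3.86, 1.71, 4.30 and 5.44 CPM in wild-type libraries (2.82 ± 0.43, edgeR adjusted p = 0.00828). Acot4 had 26.2, 21.1, 15 and 21.7 CPM in deficient and 7.39, 7.85, 10.8 and 6.96 CPM in wild-type libraries (1.37 ± 0.20, edgeR adjusted p = 0.00228). The genotypes were separate for each of the 3, although these genes are close paralogs and the split of reads between them is uncertain. Acot3, Acot5 and Acot12 were under the filter, at no more than 1.31 CPM in any of the 8 libraries.

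Oxct1, the transferase by which cells use ketone bodies, had 96.5, 95.9, 96.8 and 91.7 CPM in deficient and 122, 114, 130.1 and 159 CPM in wild-type libraries. The 4 deficient libraries lay within a narrow band under the lowest wild-type one. Oxct1 fell by 0.46 on the log2 scale (SE 0.09, edgeR adjusted p = 0.0425), a call lost with the column run as a block (edgeR adjusted p = 0.0569).

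Pdk4 encodes the kinase that shuts pyruvate dehydrogenase and so spares glucose carbon. It had 48.8, 71.7, 40.6 and 63.7 CPM in deficient and 8.74, 2.39, 6.15 and 2.83 CPM in wild-type libraries, a log2 fold change of 3.48 ± 0.62 (edgeR adjusted p = 0.0425, and 0.0993 with the column run as a block). It was the 1 called gene of 17 tested for pyruvate entry (median -0.03). Of 32 tested glycolysis genes none was called (median -0.02). At an unadjusted edgeR p under 0.05, 3 of them were higher and 2 lower, beside 3.16% and 2.64% of all tested genes. Every deficient library lay below every wild-type one for 2 of the 32, beside 1.25% of all tested genes. The glucose transporter Slc2a1 had 26.6, 31.9, 21.5 and 22.8 CPM in deficient and 38, 35.7, 34.7 and 40.9 CPM in wild-type libraries, and hexokinase Hk2 had 27.1, 30.9, 26.3 and 28.7 CPM in deficient and 40.0, 38.9, 52.9 and 34.8 CPM in wild-type libraries. Neither gene overlapped between genotypes, at -0.54 ± 0.13 and -0.55 ± 0.14, and neither passed (edgeR adjusted p = 0.114 and 0.121).

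Fatty acid synthesis was called at 1 of 21 tested genes (5 positive, median -0.05). That gene was Acacb, the acetyl-CoA carboxylase at the mitochondrial surface, whose product malonyl-CoA inhibits CPT1. Acacb was scarce, at 4.07, 5.14, 3.30 and 2.30 CPM in deficient and 0.504, 0.682, 0 and 0.435 CPM in wild-type libraries, where library c held no count. Its log2 fold change was 2.98 ± 0.48 (edgeR adjusted p = 0.00646), and with so few wild-type counts its size depends on the prior count. Mlycd, which removes malonyl-CoA, differed by 0.49 ± 0.11 and did not pass (edgeR adjusted p = 0.104). Scd2, a fatty acid desaturase with close paralogs, had 47.8, 36.5, 55.8 and 41.2 CPM in deficient and 173, 200.3, 176 and 114 CPM in wild-type libraries (-1.87 ± 0.36, edgeR adjusted p = 0.0635). Its libraries were wide apart, yet it did not pass. Me1, the malic enzyme that supplies NADPH, differed by 1.90 ± 0.42 (edgeR adjusted p = 0.107).

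For fat storage and secretion, 1 of 20 tested lipid droplet genes, 1 of 17 chylomicron genes and none of 20 uptake and activation genes was called (medians 0.17, 0.10 and 0.05). Plin2, which coats lipid droplets, had 229, 179.7, 173 and 210.3 CPM in deficient and 134, 120.3, 123 and 138 CPM in wild-type libraries (0.62 ± 0.11, edgeR adjusted p = 0.0106). Creb3l3, a transcription factor of liver and gut that controls lipid-handling genes, had 117, 67.5, 43.6 and 61.3 CPM in deficient and 10.1, 9.38, 14.5 and 18.7 CPM in wild-type libraries. Deficient library a was the highest, and the log2 fold change was 2.495 ± 0.42 (edgeR adjusted p = 0.0282, and 0.0894 with the block). Angptl4, a secreted inhibitor of lipoprotein lipase, had 121, 116, 91.8 and 129 CPM in deficient and 22.7, 6.48, 26.8 and 9.57 CPM in wild-type libraries. Wild-type libraries a and c were higher than b and d, and the log2 fold change was 2.85 ± 0.51 (edgeR adjusted p = 0.0425, and 0.117 with the block).

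Fabp1, the fatty acid binding protein of enterocytes and hepatocytes, had 1198, 1053, 207 and 529.9 CPM in deficient and 46.4, 120.3, 60.0 and 153 CPM in wild-type libraries. Every deficient library exceeded every wild-type one, but library c was near the wild-type range, and 2.97 ± 0.56 did not pass (edgeR adjusted p = 0.0576). The lipases Mgll and Lipe and the droplet protein Plin5 differed by 1.96 ± 0.42, 0.92 ± 0.26 and 2.81 ± 0.97, and the fatty acid transporter Slc27a4 by 0.51 ± 0.15, none of them past the threshold. In the list of Cyp4a and retinoid genes, 1 of 15 rose: Dhrs4, a peroxisomal retinal reductase, with 304, 306, 327 and 356 CPM in deficient and 215, 210.2, 154 and 213 CPM in wild-type libraries (0.70 ± 0.12, edgeR adjusted p = 0.00894). Retsat, a retinol saturase, differed by 0.62 ± 0.13 (edgeR adjusted p = 0.0556). Cyp4a10, a fatty acid omega-hydroxylase with close paralogs, differed by 3.44 ± 0.73 (edgeR adjusted p = 0.0897).

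Known PPAR target genes were the list with the largest share of calls. Of 46 listed, 40 passed the filter, of which 18 rose, 1 (Cpt1a) fell and 21 did not pass, against 0.257% of all tested genes called. 38 of the 40 were positive, with a median of 0.73 beside 0.01 over all genes. The list was written with results of these data in view and shares 10 genes with mitochondrial beta-oxidation, 6 with peroxisomal oxidation, 5 with fatty acid uptake and 2 with thioesterases, so it is not independent of the lists above. Its called members not yet described include Hsdl2, a dehydrogenase-like protein, with 90.4, 87.8, 69.8 and 65.5 CPM in deficient and 30.4, 29.2, 31.1 and 32.9 CPM in wild-type libraries (1.35 ± 0.16, edgeR adjusted p = 2.98e-04). The 6 members under the filter were Aqp7, Cpt1b, Cyp4a14, Fgf21, Lpl and Ucp3. Of these, Cyp4a14, Fgf21 and Ucp3 were at 0 in all 8 libraries. The receptors themselves were not called. Ppara had 28.9, 24.7, 22.5 and 31.2 CPM in deficient and 33.1, 20.3, 27.1 and 30.5 CPM in wild-type libraries, which overlapped widely. Pparg averaged 18.1 ± 3.47 CPM in deficient and 16 ± 4.17 CPM in wild-type libraries (SD). Ppard was scarce, at 1.99 to 2.80 CPM in deficient and 3.19 to 4.00 CPM in wild-type libraries (-0.62 ± 0.27, edgeR adjusted p = 0.8292). The coactivator Ppargc1a differed by -0.37 ± 0.23 (edgeR adjusted p = 0.914).

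**Figure D3:**
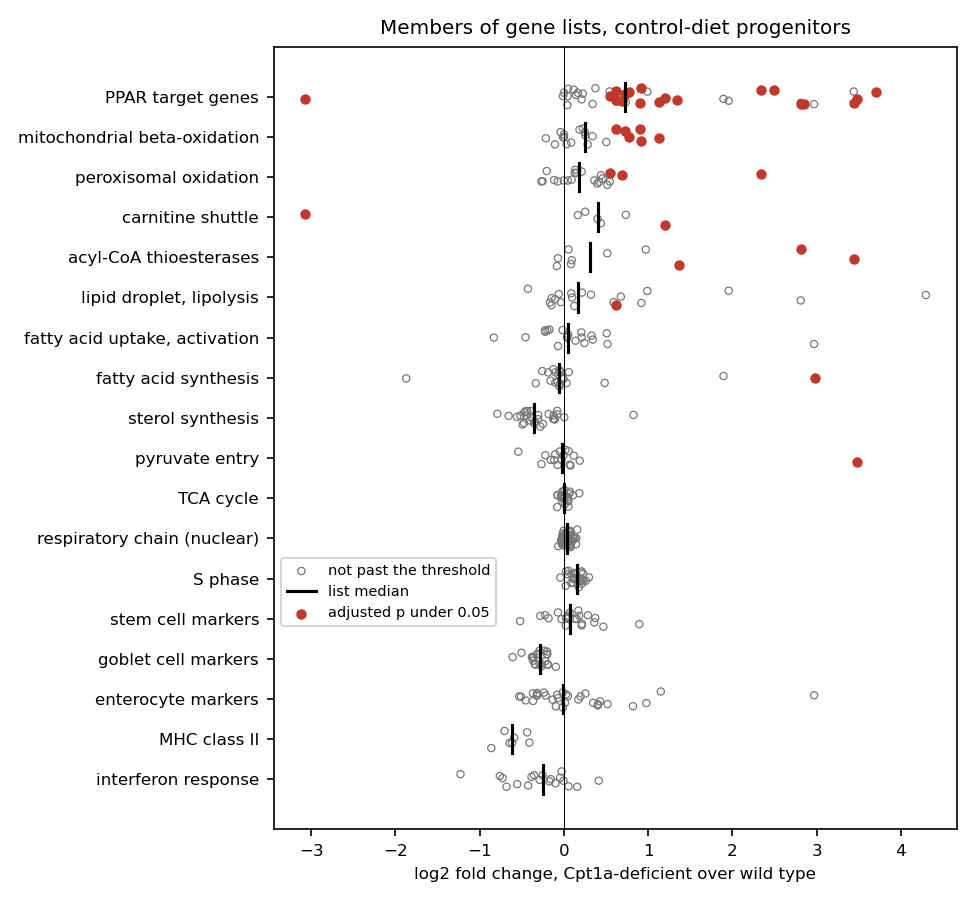
Each row is a gene list and each point a tested member; the horizontal axis is the log2 fold change, Cpt1a-deficient over wild type. Filled points are called, open points are not, and the black bar is the list median. PPAR target genes have 18 filled points above 0 and a median of 0.73, sterol synthesis genes have none filled and a median of -0.35, and goblet cell markers all lie below 0 with none filled. Genes on several lists appear in each. Within libraries a and b alone, most goblet cell markers were positive.

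PPAR and RXR pairs bind a direct repeat of the hexamer AGGTCA with 1 base between the copies. The pattern AGGTCANAGGTCA was searched on both strands of RefSeq promoter windows of 300 bases, 250 before to 50 after each start, with up to 2 mismatches outside the N. It was found for 5 of the 24 genes called higher that have an entry (20.8%) and for 361 of 9290 tested genes with an entry (3.89%). A gene was counted when any of its windows matched, so genes with more starts had more chances. The number of windows per gene was not compared between the 2 sets. No exact match occurred among the 24. Acaa2, Angptl4 and Slc16a13 had no entry. A match is a description of letters and not a shown binding site. The 5 are given below 5′ to 3′ on the strand of the gene, from RefSeq on GRCm38.p6, with the matching 13 bases in capitals. Acot4 and Plin2 are shown from 250 bases before to 30 after the start, and Paqr7 up to its GENCODE start. Slc25a20 and Creb3l3 are shown as 30 bases around the match, because the match lies inside the gene as GENCODE M21 draws it. For Creb3l3 it belongs to an internal RefSeq start. Counted from the RefSeq start, the matches begin at position -13 in Acot4, -225 in Plin2, -219 in Paqr7, 7 in Slc25a20 and -209 in Creb3l3. The regions are chr12:84038129-84038408 (plus), chr4:86670030-86670309 (minus), chr4:134496511-134496696 (plus), chr9:108662134-108662163 (plus) and chr10:81092779-81092808 (minus).
Acot4: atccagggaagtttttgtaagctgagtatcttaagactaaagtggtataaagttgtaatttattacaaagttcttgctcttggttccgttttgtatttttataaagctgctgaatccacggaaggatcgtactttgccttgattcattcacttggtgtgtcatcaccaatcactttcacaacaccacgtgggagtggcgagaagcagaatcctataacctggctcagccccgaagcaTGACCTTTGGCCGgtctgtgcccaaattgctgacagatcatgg
Plin2: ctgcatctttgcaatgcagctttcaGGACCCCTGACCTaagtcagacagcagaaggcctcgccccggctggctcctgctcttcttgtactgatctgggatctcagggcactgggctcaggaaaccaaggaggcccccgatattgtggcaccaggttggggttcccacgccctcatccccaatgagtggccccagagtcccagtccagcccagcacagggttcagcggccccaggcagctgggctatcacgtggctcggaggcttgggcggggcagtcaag
Paqr7: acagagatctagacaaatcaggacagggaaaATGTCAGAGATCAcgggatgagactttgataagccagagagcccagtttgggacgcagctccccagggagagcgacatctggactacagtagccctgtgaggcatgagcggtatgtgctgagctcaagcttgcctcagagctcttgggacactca
Slc25a20: ctgaatgtAGGTGAAAGGTCGgcggagccg
Creb3l3: ctgtaagtAGGGGAGAGGTCAcacagaccc

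Of the 32 called genes, 24 were on at least 1 list and 8 on none. Among those 8, Nceh1, a hydrolase of neutral cholesterol esters, had 48.8, 43.3, 47.6 and 44.7 CPM in deficient and 28.2, 23, 23.4 and 24.4 CPM in wild-type libraries (0.89 ± 0.11, edgeR adjusted p = 2.98e-04). Abhd6, a monoacylglycerol lipase, had 76.8, 69.2, 37.8 and 54.2 CPM in deficient and 32.3, 32.4, 28.6 and 32.2 CPM in wild-type libraries (0.92 ± 0.18, edgeR adjusted p = 0.047, and 0.135 with the block). Both hydrolyse lipid esters. Vwa8, a mitochondrial ATPase, ranged over 47.5 to 63.4 CPM in deficient and 29.7 to 38.2 CPM in wild-type libraries (0.75 ± 0.14, edgeR adjusted p = 0.0198, and 0.061 with the block). Slc16a13, of the monocarboxylate transporter family, had 39.7, 29.9, 41.4 and 43.2 CPM in deficient and 28.9, 22, 14.1 and 22 CPM in wild-type libraries (0.80 ± 0.16, edgeR adjusted p = 0.0425). The lowest deficient and highest wild-type library were close.

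The remaining called genes are not known chiefly for fat metabolism. Paqr7, a membrane progestin receptor, had 12.1, 5.81, 7.43 and 7.88 CPM in deficient and 1.18, 2.39, 1.54 and 2.83 CPM in wild-type libraries (2.06 ± 0.34, edgeR adjusted p = 0.00828). Slit2, a secreted guidance ligand of ROBO receptors, had 4.35, 6.30, 12.4 and 6.24 CPM in deficient and 2.18, 2.22, 1.23 and 2.18 CPM in wild-type libraries (1.85 ± 0.35, edgeR adjusted p = 0.0279). Both were scarce, and deficient library c was the highest for Slit2. Hjurp, the chaperone that loads the centromeric histone CENP-A, ranged over 284 to 348 CPM in deficient and 202 to 262 CPM in wild-type libraries (0.53 ± 0.10, edgeR adjusted p = 0.0184). Sesn1, a stress-response gene and p53 target that restrains mTORC1, had 86.4, 67.4, 77.1 and 82.1 CPM in deficient and 99.8, 112, 114 and 125 CPM in wild-type libraries. It fell by 0.52 on the log2 scale (SE 0.11, edgeR adjusted p = 0.0425) and was the 1 called gene of 21 tested p53 targets. Its call was lost with only the 8 libraries (edgeR adjusted p = 0.0535) and without any 1 of 7 libraries (at most 0.171). Plac9b had 0.561, 0, 1.16 and 0.657 CPM in deficient and 2.35, 4.27, 3.69 and 4.13 CPM in wild-type libraries (-2.56 ± 0.52, edgeR adjusted p = 0.047). Its count is uncertain because a near-identical copy, Plac9a, can share its reads.

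Several lists leaned below 0 without a called gene. Sterol synthesis had 27 of 29 tested members negative (median -0.35), of which 10 had an unadjusted p under 0.05, beside 329 of 12460 genes lower at that level (2.64%). The median was -0.21 without wild-type library b. Stard4, a sterol carrier, had 66.6, 67.9, 58.5 and 71.5 CPM in deficient and 96.3, 92.6, 79.9 and 76.6 CPM in wild-type libraries, and Sc5d, a late enzyme of the pathway, had 111, 115, 99.9 and 107 CPM in deficient and 129, 167, 145 and 149 CPM in wild-type libraries. Hmgcs1, the cytosolic HMG-CoA synthase of the pathway, had 163, 188, 181 and 162 CPM in deficient and 211, 314, 229 and 209 CPM in wild-type libraries. None of the 3 overlapped between genotypes, with differences of -0.39 ± 0.09, -0.45 ± 0.11 and -0.47 ± 0.15 (edgeR adjusted p = 0.113, 0.116 and 0.425).

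Immune genes leaned the same way, with 7 of 7 MHC class II genes (median -0.61), 16 of 17 MHC class I presentation genes (-0.22), 16 of 19 interferon response genes (-0.25) and 14 of 16 epithelial defence genes (-0.42) negative, none of them called. These medians moved with single libraries: MHC class II was -0.97 without deficient library b, MHC class I -0.10 without deficient library c, interferon response -0.46 without deficient library b and -0.04 without wild-type library b, and epithelial defence -0.18 without wild-type library c. Irf1, a transcription factor of the interferon response, had 193, 220.1, 201 and 209 CPM in deficient and 252, 288, 274 and 290.3 CPM in wild-type libraries, which did not overlap (-0.42 ± 0.09, edgeR adjusted p = 0.0755). Cd74, the invariant chain of MHC class II, had 554, 916, 375 and 437 CPM in deficient and 902, 978, 776 and 913 CPM in wild-type libraries (-0.64 ± 0.43, edgeR adjusted p = 0.917). Deficient library b lay within the wild-type range and the other 3 under it. Ciita, which switches on class II genes, differed by -0.86 ± 0.36, H2-K1 by -0.24 ± 0.07 and H2-D1 by -0.23 ± 0.09. The oxidase factor Duoxa2 and the antibody transporter Pigr differed by -0.92 ± 0.36 and -0.31 ± 0.13. Some of these genes were lower mainly within libraries c and d. Duoxa2 differed by 0.07 ± 0.29 in a and b and -1.66 ± 0.29 in c and d, H2-D1 by -0.05 ± 0.11 and -0.42 ± 0.11, and Cd74 by -0.37 ± 0.38 and -1.06 ± 0.38. Irf1 was alike in both pairs (-0.40 ± 0.12 and -0.46 ± 0.12), and Ciita was the lower in a and b (-1.18 ± 0.46 and -0.55 ± 0.48). For none of these did the difference between the pairs pass. White blood cell markers summed to 21.03 to 24.8 CPM in deficient and 20.8 to 40.3 CPM in wild-type libraries, with Ptprc, which encodes CD45, at 0 in all 8. The part of the remaining white blood cell signal in these values was not tested.

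Markers of the crypt lineages gave no called gene. Of 23 tested stem cell markers, 17 were positive (median 0.07, but -0.08 without deficient library c and 0.22 without deficient library a), and their summed level ran from 4386 to 9791 CPM in deficient and from 5802 to 7496 CPM in wild-type libraries. The pooled count hides a split, with most stem cell markers negative within libraries a and b and most positive within c and d. Olfm4 differed by -0.83 ± 0.27 in a and b and 0.74 ± 0.27 in c and d, and Rgmb by -0.52 ± 0.28 and 0.81 ± 0.28. Slc14a1 was positive in both pairs, at 0.35 ± 0.30 and 1.64 ± 0.33. For no stem cell marker did the difference between the pairs pass. Lgr5, the gene behind the sort, had 11.4, 23.9, 81.2 and 35.8 CPM in deficient and 28.9, 39.2, 16 and 23.5 CPM in wild-type libraries. Deficient library c was far above the rest and library a below them, and the difference of 0.47 ± 0.53 became -0.22 without library c. Slc14a1 and Prom1 differed by 0.90 ± 0.35 and -0.28 ± 0.15. All 22 goblet cell markers were negative (median -0.29, but -0.14 without wild-type library c, -0.17 without deficient library d and -0.51 without deficient library b), with summed levels of 11495 to 23888 CPM in deficient and 14235 to 25880 CPM in wild-type libraries. Within libraries a and b alone most of these markers were positive, whereas within c and d all were negative. Clca1 differed by 0.51 ± 0.25 in a and b and -1.49 ± 0.25 in c and d. Ang4 was the lower in a and b, at -0.52 ± 0.37 and -0.15 ± 0.39. No goblet cell marker passed for the difference between the pairs. Muc2, the main gel-forming mucin, had 241, 405, 292 and 217 CPM in deficient and 287, 389, 727 and 361 CPM in wild-type libraries, and Klk1 differed by -0.36 ± 0.17 and Atoh1, the secretory fate factor, by -0.19 ± 0.21.

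Enterocyte markers were positive for 15 of 31 (median -0.01), with sums of 4499 to 9224 CPM in deficient and 6244 to 7466 CPM in wild-type libraries. Treh, a brush border enzyme on that list, differed by 0.98 ± 0.39 (edgeR adjusted p = 0.742). The pooled count hides a split here too, with most enterocyte markers positive within libraries a and b and most negative within c and d. Alpi differed by 1.90 ± 0.40 in a and b and -0.87 ± 0.39 in c and d. Treh was positive in both pairs, at 0.88 ± 0.43 and 1.14 ± 0.49. For no enterocyte marker did the difference between the pairs pass. The deficient libraries thus reached both below and above the wild-type range for these markers. Paneth cell markers summed to 4198 to 13680 CPM in deficient and 6526 to 16647 CPM in wild-type libraries, with 12 of 21 positive. Enteroendocrine markers summed to 919 to 1965 and 876 to 1394 CPM, and tuft markers to 248 to 379.6 and 295 to 333 CPM, in deficient and in wild-type libraries. Most enteroendocrine markers were likewise positive within a and b and negative within c and d, such as Chgb at 0.71 ± 0.30 and -0.64 ± 0.30. Gip was positive in both pairs, at 0.97 ± 0.45 and 0.98 ± 0.47, and no enteroendocrine marker passed for the difference. Stroma and endothelium markers summed to at most 13.8 CPM in deficient and 13.7 CPM in wild-type libraries, with Col1a1, Col1a2, Col3a1 and Cdh5 at 0 in all 8, and red blood cell markers to at most 0.280 and 0.171 CPM. Epcam was at 2138 to 2430.4 CPM in deficient and 2262 to 2606 CPM in wild-type libraries, Cd24a at 213 to 309 and 241 to 278 CPM, and Pecam1 at no more than 0.495 and 0.922 CPM. These values show epithelial cells with little or no endothelial signal, as the gate sets. Whether shifts in cell makeup had a part in the calls was not tested.

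Growth and stress lists were also without a call. Of 28 S phase genes 27 were positive, with a median of 0.16, and Rfc2, of the clamp loader, and Chaf1a, of a histone chaperone, did not pass (0.20 ± 0.10 and 0.21 ± 0.12). G2 and M phase genes (20 of 26 positive, median 0.07), unfolded protein and chaperone genes (8 of 22, -0.07) and integrated stress response genes (11 of 21, 0.00) lay close to 0. In the antioxidant list, 18 of 25 were positive (median 0.08). Catalase (Cat), which removes hydrogen peroxide made by peroxisomal oxidation, had 263, 241, 275 and 269 CPM in deficient and 185, 192, 189 and 182 CPM in wild-type libraries. The genotypes did not overlap, but 0.49 ± 0.11 did not pass (edgeR adjusted p = 0.073). Ucp2, an inner membrane carrier, differed by 0.38 ± 0.14 (edgeR adjusted p = 0.643).

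The same 32 genes were then read in 2 other genotype comparisons, which contrast none of the same libraries. Both were fitted together with the libraries above, so each gene's estimated spread is shared and the calls are not independent. In progenitors on the high-fat diet, where 88 of 12460 genes were called (0.706%, with 59 or 0.474% higher and 29 or 0.233% lower), all 32 had the same sign and 29 were called too. These 29 are 90.6% of the 32 and 33.0% of the 88. Paqr7, Creb3l3 and Abhd6 were not called there, at 0.91 ± 0.27, 1.66 ± 0.36 and 0.74 ± 0.18. The difference between diets, tested as an interaction, gave no called gene in edgeR or DESeq2, with 561 genes at an unadjusted p under 0.05 in edgeR (4.5% of those tested) and 506 in DESeq2. Oxct1 differed on the high-fat diet by -0.89 ± 0.09, with an interaction of -0.43 ± 0.13 (edgeR adjusted p = 0.969). Slc25a20, Hsdl2, Acadl and Hadha had nearly the same size on both diets, at 1.16 ± 0.13, 1.34 ± 0.15, 1.10 ± 0.14 and 0.79 ± 0.09 on the high-fat diet.

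In Lgr5-eGFP-high stem cells on the control diet, 36 of 13088 genes were called (0.275%, with 31 or 0.237% higher and 5 or 0.0382% lower). There 31 of the 32 had the same sign and 18 were called, which is 56.3% of the 32 and 18 of the 36, and 17 were called in all 3 comparisons. Plac9b was the exception in sign, at 0.92 ± 1.03. Plin2 differed by 0.16 ± 0.10 in stem cells, Angptl4 by 1.57 ± 0.53, Paqr7 by 0.65 ± 0.34 and Acot2 by 1.38 ± 0.35, none of them called. Acadl (1.29 ± 0.16), Hadhb (0.96 ± 0.11), Slc25a20 (1.15 ± 0.16) and Creb3l3 (3.13 ± 0.40) were called in stem cells. The difference of the genotype effect between the populations called no gene in edgeR, with 263 of 13088 at an unadjusted p under 0.05 (2.01%), and 2 predicted genes in DESeq2, Gm2436 and Gm10031. For Plin2 that difference was 0.45 ± 0.14, for Paqr7 1.39 ± 0.48 and for Acot2 1.43 ± 0.53 (edgeR adjusted p = 0.99998 for each). A larger effect in one population than in the other was therefore not shown for any of the 32.

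**Figure D4:**
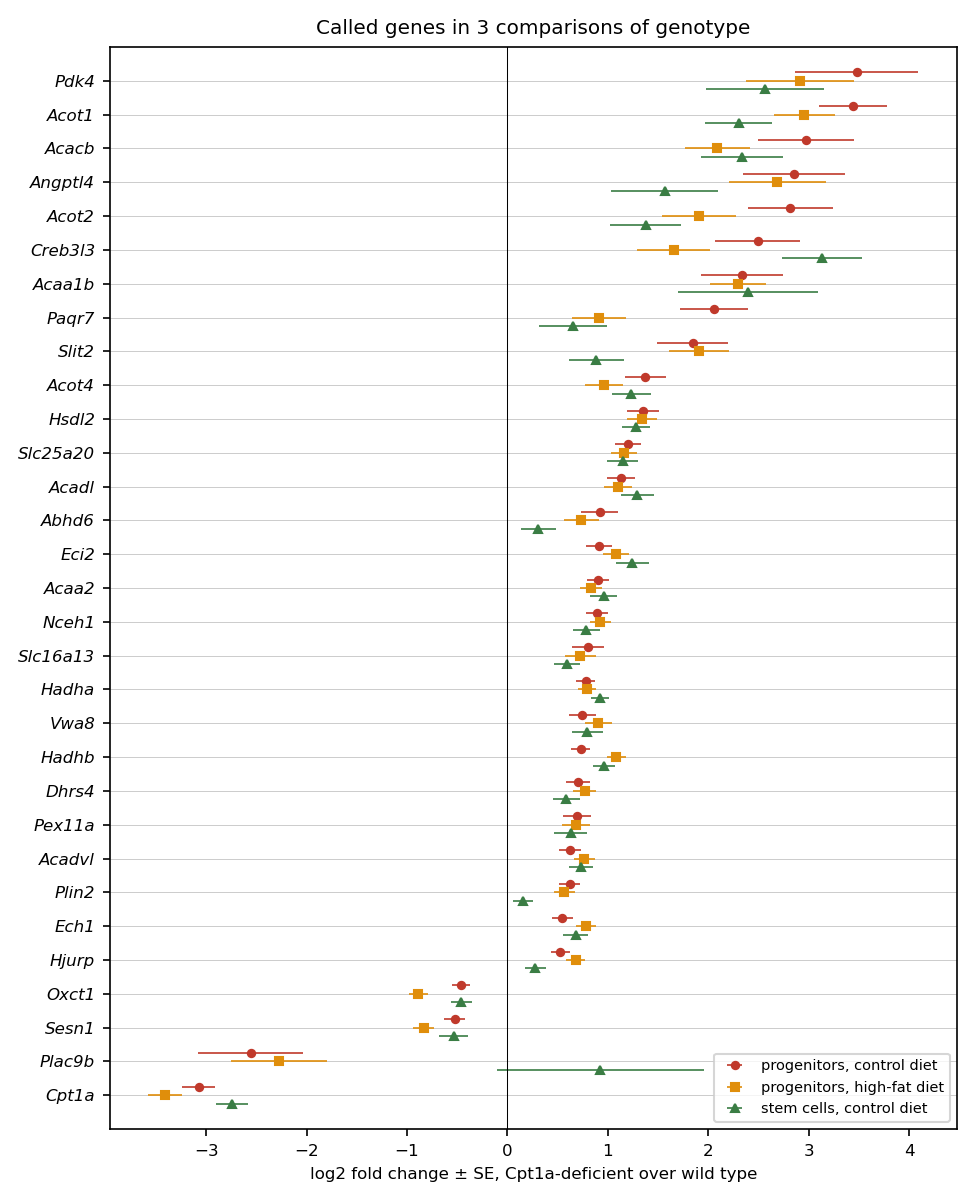
Each row is a called gene; the horizontal axis is the log2 fold change, Cpt1a-deficient over wild type, with its standard error as the bar. Circles are control-diet progenitors, squares high-fat progenitors and triangles control-diet stem cells. Each gene drawn has the same sign in both progenitor comparisons, and Plac9b alone differs in sign in stem cells. The genes were chosen in the control-diet progenitors.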

How the data were processed

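PolyA RNA of sorted cells was sequenced from 32 samples. Per the submitters' processing notes, the tools were STAR 2.5.3a, RSEM 1.3.0 and SAMtools 1.3 with mm10, in no stated role; annotation and strand setting are not given in the sources used here. The authors deposited expected counts (estimated reads per gene, rounded to whole numbers) for 50686 genes, and a table of log2 values, the log2 of TPM plus 1. The expected counts were read as fractional before rounding from 2831 values at 0 with a TPM above 0. Symbols matched 50376 genes, and 0.0677% of counts fell to genes with none. Positions came from GENCODE M21.

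Column names were matched to groups. The 16 progenitor libraries were fitted together as 4 groups with edgeR 4.0.16 (R 4.3.3): TMM, filterByExpr at a minimum count of 10, robust quasi-likelihood, Benjamini-Hochberg at 0.05, and 12 residual degrees of freedom. All 32 libraries gave the stem cell comparison (13088 genes). Standard errors were derived from the F statistic. DESeq2 1.42.0, limma 3.58.1 and other scalings, filters and library sets were alternatives. Column names carry no replicate number. The 4 runs of 8 consecutive columns were checked as pairs: deviations of same-run deficient and wild-type libraries correlated at 0.118, 0.163, 0.138 and 0.105, and each was highest within its own run, so the run served as a replicate block in an alternative and its p is printed beside each described gene whose call changed.

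The comparison and the gene lists were chosen with earlier results of these data known. Genes past the threshold, up to 4 called or 2 uncalled members of each list, the Cpt1 genes and the gate genes followed a rule. Cpt2, Crot, Etfb, Acaa1a, Hsd17b4, Abcd3, Acot8, Mgll, Lipe, Plin5, Retsat, Cyp4a10, Scd2, Mlycd, Me1, Hmgcs1, Ppara, Pparg, Ppargc1a, Atoh1, Tmem266, Abcb1a, Wdfy1 and the 2 DESeq2 genes were named after their values were seen. Some genes that the counts include are not reported here. On simulated data of this design (12328 genes), edgeR found 41% of the genes set to a 1.5-fold change, 76.8% of those at 2-fold and 89.7% of those at 4-fold. Part of the genes set to change was thus missed, so a gene that did not pass is not shown to be unchanged. Of 143 calls 4 were false. The simulated libraries were drawn independently with no effect of column run or sex, so these rates are for a simpler setting than these data.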

Additional observations from a re-analysis of the deposited data

Results flagged for a closer look

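In 8 of 162 groups of 4 libraries looked at, 1 library stood apart from the other 3 by Dixon's 95% criterion on the gap over the range, and chance gives about 1 in 20 such groups. In Cpt1a-deficient progenitors these were Acaa1a in library a, high at 225 CPM, and H2-K1 in library b, high at 568 CPM. Among wild-type progenitors, library c was low for Dhrs4 (154 CPM), Slit2 (1.23 CPM), Abhd6 (28.6 CPM) and Acot8 (25.5 CPM), and library d was high for Acadvl (333 CPM) and Retsat (147 CPM). Wild-type library c had the lowest total, 3307711 estimated counts, whose part in these values was not tested.

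The genotype effect on Wdfy1, an endosomal adaptor, had opposite signs in libraries a and b, high in Xist, and in c and d, high in Ddx3y, by a test of the difference. Its deficient libraries a to d held 76.4, 34.97, 9.71 and 11.5 CPM, against 12.4, 11.6, 48.8 and 48.8 CPM in the wild-type libraries. The log2 fold change was 2.22 ± 0.28 in a and b and -2.20 ± 0.29 in c and d, a difference of 4.43 ± 0.40 (edgeR adjusted p = 6.44e-04), and it was the 1 gene of 12941 called for that difference.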

How the results depend on the processing

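Against 32 called genes, DESeq2 called 83 (59 higher and 24 lower), including all 32, and leaving out 1 library at a time gave 17 to 49. Called genes on at least 1 list numbered 24, against 42 by DESeq2 and 14 to 32 without 1 library. The remaining alternatives gave 30 with RLE and 35 with upper quartile scaling, 48 with no filter and 31 at a minimum count of 30, 27 with only the 8 libraries (21 of the 32 kept), 44 with all 32, 29 with the Xist level as a covariate, 25 by limma on log2 TPM and, in an alternative chosen after seeing the data, 27 with thinning. The replicate block gave 28 (25 kept; Cpt2, Tmem266 and Abcb1a gained, with edgeR adjusted p = 0.0258, 0.0264 and 0.0236) and changed no call among the 32 other than the 7 given with their blocked p; under it the interaction with diet and the difference between populations kept 0 called genes. Those 2 comparisons had 0 calls in each alternative run, except 2 by DESeq2 for the difference between populations. No called gene changed direction, and 14 stayed called in all 19 alternatives. Of genes near 0, Ppara (-0.05) was 0.0085 by limma and between -0.18 and 0.0495 without 1 library, and Lgr5 (0.47) was between -0.22 and 0.78 without 1 library; the cause was not tested. Column names carry no sex; libraries a and b gave 41 calls and c and d 31 in a split chosen after seeing the data. Genes at a few CPM, such as Acacb, Acaa1b and Plac9b, rest on few counts.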
